A study of Mus musculus with 15 samples.

Results

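The genes described here encode canonical Polycomb repressive complex 1 (PRC1) and the Scm proteins that associate with it. They were the 9 genes *Ring1*, *Rnf2*, *Bmi1*, *Phc1*, *Cbx2*, *Cbx7*, *Cbx8*, *Scml2* and *Scmh1*, chosen by name from the 55536 genes of the count table, with their levels in these samples already known. Their levels, fold changes and counts of calls are therefore given as descriptions, and p-values of single genes are given for other genes only. RNA-seq was done in the 4TF system, in which mouse ESCs are turned into primordial germ cell-like cells (PGCLCs) by transcription factors rather than cytokines. All groups came from Stella-eGFP ESCs carrying doxycycline (Dox)-inducible *Prdm1*, *Prdm14*, *Tfap2c* and *Nanog* transgenes. Naive ESCs were grown in 2i and LIF. Epiblast-like cells (EpiLCs) were taken after 48 h in Activin A, bFGF and KSR. PGCLCs were the Stella-eGFP+ cells on days 2, 4 and 6 after Dox was added to EpiLC aggregates, named D2PGCLCs, D4PGCLCs and D6PGCLCs. Each of the 5 groups had 3 replicates. The labels do not say that replicates were separate cultures, so errors and p-values measure the spread between these samples, which may be technical. The transgenes came in piggyBac vectors and, for *Tfap2c*, a lentivirus, in selected cells, and none of the 9 genes is among them.

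PRC1 places a ubiquitin on histone H2A and compacts chromatin, which keeps developmental regulators silent. Every PRC1 complex has a RING E3 ligase (RING1 or RNF2) paired with a PCGF protein. Canonical complexes, built on PCGF2 or BMI1 (also called PCGF4), add a CBX protein that reads H3K27me3, a polyhomeotic (PHC) protein whose SAM domain polymerizes, and at lower amounts an SCM protein. Variant complexes carry RYBP or YAF2 in place of CBX. In the germline, SCML2 is known from spermatogenic cells and PRC1 from the timing of meiotic entry.

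All 9 genes passed the filter on low counts, which left 18090 genes for testing. Total counts per sample ran from 22555021 to 42725681, at which 3 counts correspond to at most 0.133 CPM (counts scaled to a common library size). D6PGCLC replicate 1 had counts in 18061 genes against 21103 to 24343 in the other samples. The numbers of the 9 genes and partner genes called on day 6, and some fold changes, are therefore also given without it. The labelled cell types had their markers. The summed level of 6 naive genes was 2367 to 2393 CPM in ESCs and 354 to 359 in EpiLCs, that of 5 EpiLC genes 2815 to 3046 CPM in EpiLCs and at most 218 elsewhere, and that of 7 PGC genes 894 to 1111 CPM in PGCLCs and at most 340 elsewhere. PGCLC samples kept part of the naive sum, from 1041 CPM (lowest, day 6) up to 1434 CPM (highest, day 2), which lies between EpiLCs and ESCs. The PGC list holds 3 of the transgenes and the gene behind the sorting reporter. Among 6 fibroblast genes the sum was 18.2 to 19.8 CPM in EpiLCs, against 7.72 to 8.41 in ESCs and 0.919 to 2.19 for PGCLC samples, with *Lum* and *Postn* at no more than 4 counts in any sample. All levels below are CPM after TMM normalization, and levels of different genes are compared only per kilobase of merged exons (FPKM).

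*Scml2* had the widest range of the 9 genes, 10.7-fold between its lowest and highest group, and *Scmh1*, the other Scm gene, peaked on a different day. *Scmh1* was highest in D2PGCLCs and lower on each later day, whereas *Scml2* was low in ESCs and EpiLCs and highest in D6PGCLCs. *Phc1* was highest in EpiLCs, with a 3.41-fold range, and *Cbx8* and *Bmi1* were highest in ESCs, with ranges of 3.55-fold and 2.28-fold. *Ring1* spanned 4.49-fold with its low in EpiLCs. *Rnf2*, *Cbx2* and *Cbx7* spanned 1.34-fold, 1.29-fold and 1.5-fold.

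**Figure D1:**
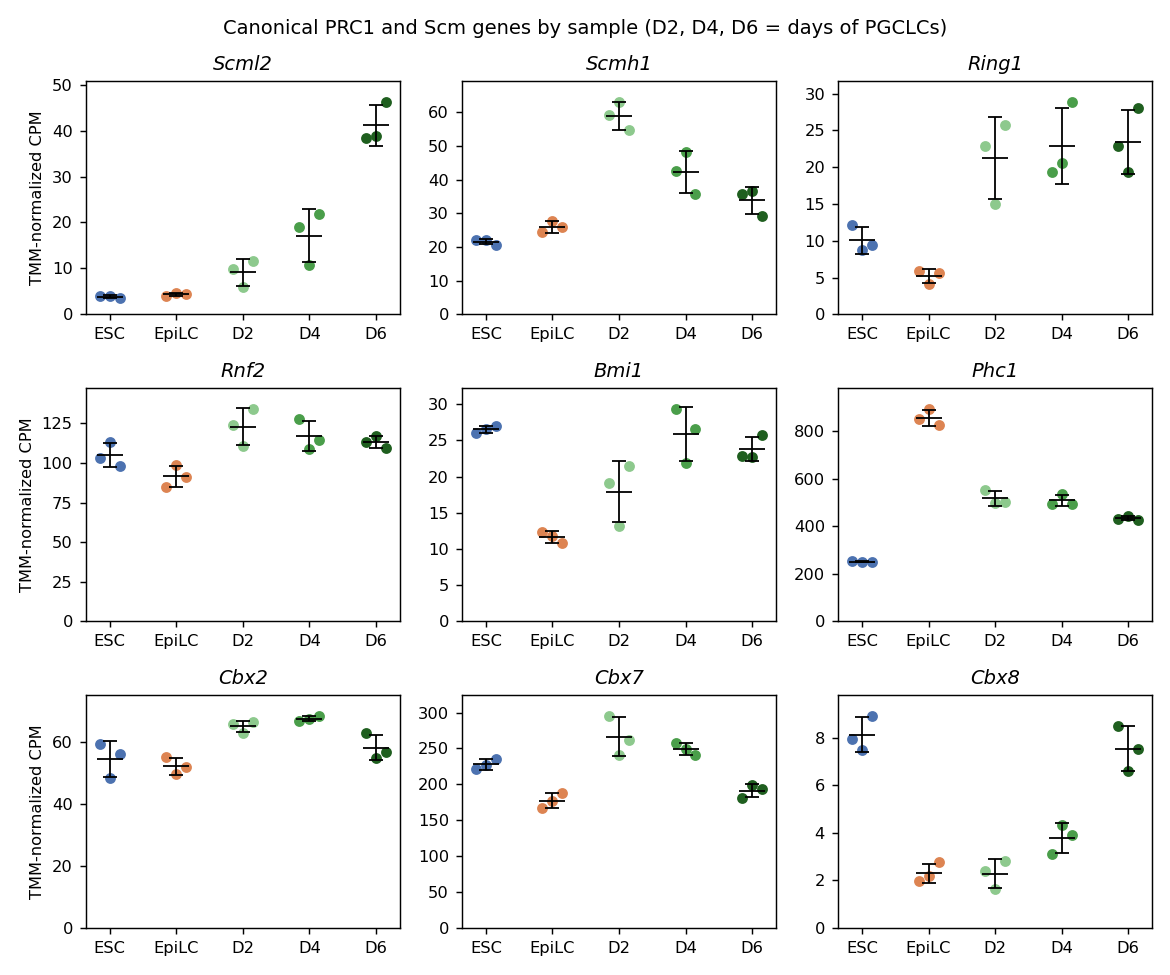
TMM-normalized CPM of the 9 genes (y axes from 0, a scale of its own for each gene) in ESCs, EpiLCs and PGCLCs of days 2, 4 and 6 (x axis); points are samples, bars the mean and SD of 3 replicates. *Scml2* is highest on day 6 (38.4 to 46.2 CPM) and *Scmh1* on day 2 (54.7 to 63.0 CPM), while *Phc1* stands above 825 CPM in all EpiLC samples.

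Per length, *Phc1* had the highest level of the 9 genes in every group, with 47.3 ± 0.442 FPKM in ESCs, 162 ± 6.41 in EpiLCs and 81.8 ± 1.82 in D6PGCLCs (SD, n = 3). *Cbx7* and *Rnf2* followed, with 29.5 ± 1.46 and 27.4 ± 0.941 FPKM in D6PGCLCs. *Scml2* had the lowest level in ESCs, at 0.631 ± 0.0553 FPKM, and 6.76 ± 0.721 FPKM in D6PGCLCs, where *Cbx8* was lowest with 2.05 ± 0.259 FPKM.

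*Rnf2* (chr1:151458004-151500955, minus strand, mm10) encodes RING1B and *Ring1* (chr17:34020792-34024680, minus strand) its paralog RING1A, and either can serve as the catalytic subunit. *Ring1* was 12.2, 8.68 and 9.41 CPM in ESCs, 5.93, 4.14 and 5.58 in EpiLCs, 23.0, 15.0 and 25.8 in D2PGCLCs, 19.3, 20.6 and 28.8 in D4PGCLCs, and 22.9, 19.4 and 28.0 in D6PGCLCs. Its EpiLC samples lay below all others, its ESC samples lay between EpiLCs and PGCLCs, and the 3 days of PGCLCs overlapped. The log2 fold change of *Ring1* was -0.96 ± 0.22 (SE) from ESCs to EpiLCs and 2.03 ± 0.22 from EpiLCs to D2PGCLCs. In D6PGCLCs it was 1.21 ± 0.21 above ESCs, or 1.25 without D6PGCLC replicate 1. *Rnf2* was 103, 113 and 98.3 CPM in ESCs, 85.1, 98.5 and 91.0 in EpiLCs, 124, 111 and 134 in D2PGCLCs, 128, 109 and 115 in D4PGCLCs, and 113, 117 and 110 in D6PGCLCs. Each group overlapped its neighbour in the order of levels. *Rnf2* shares 158 bases of exon with *Trmt1l* on the opposite strand, and the sources used here do not say whether reads were counted by strand. Of the summed FPKM of the 2 ligase genes, *Ring1* made up 10.9% ± 2.06 in ESCs, 6.82% ± 1.58 in EpiLCs, 17.8% ± 2.69 on day 2 of PGCLCs, 19.9% ± 4.08 on day 4 and 20.8% ± 3.59 on day 6. *Rnf2* was thus the main ligase transcript throughout, and its sum with *Ring1* was 28.5 ± 1.69 FPKM in ESCs, 23.8 ± 1.35 in EpiLCs and 34.7 ± 0.436 in D6PGCLCs.

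*Bmi1* (chr2:18677018-18686629, plus strand) and *Pcgf2* are the PCGF genes of canonical PRC1. *Bmi1* was 26.0, 26.6 and 26.9 CPM in ESCs, 12.4, 11.7 and 10.8 in EpiLCs, 19.1, 13.2 and 21.5 in D2PGCLCs, 29.4, 21.9 and 26.6 in D4PGCLCs, and 22.9, 22.8 and 25.8 in D6PGCLCs. All EpiLC samples were below all others, and the D4PGCLC samples overlapped those of ESCs and of D6PGCLCs. The log2 fold changes were -1.19 ± 0.15 from ESCs to EpiLCs, 0.63 ± 0.15 from EpiLCs to D2PGCLCs and 0.53 ± 0.15 from D2PGCLCs to D4PGCLCs. Transcripts of *Bmi1* and the annotated gene *Gm5946* match at 97% over 2658 bases, so reads could be shared between them, but *Gm5946* had at most 4 counts in any sample. *Pcgf2* was the more abundant of the pair. *Bmi1* made up 23.5% ± 1.46 of their summed FPKM in ESCs, 14.1% ± 0.654 in EpiLCs, 12.8% ± 2.55 in D2PGCLCs and 17.6% ± 0.766 in D6PGCLCs. With the longest annotated transcript in place of merged exons its share was 19.3% in ESCs and 14.3% in D6PGCLCs. *Pcgf2* was lower in EpiLCs than in ESCs (log2 fold change -0.29 ± 0.09, edgeR adjusted p = 0.00966) and higher in D2PGCLCs than in EpiLCs (0.78 ± 0.09, edgeR adjusted p = 4.91e-07), both within the fold cutoff used for calls, an absolute log2 fold change of 1.

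*Phc1* (chr6:122317731-122340561, minus strand) encodes the polyhomeotic protein of these complexes in pluripotent cells. It was 254, 249 and 250 CPM in ESCs, 851, 893 and 825 in EpiLCs, 552, 495 and 503 in D2PGCLCs, 493, 536 and 495 in D4PGCLCs, and 431, 444 and 425 in D6PGCLCs. The groups were apart from each other except for days 2 and 4, and every PGCLC sample stayed between ESCs and EpiLCs. The log2 fold change was 1.77 ± 0.07 from ESCs to EpiLCs, the highest of the 9 genes in that comparison, then -0.73 ± 0.07 into D2PGCLCs and -0.23 ± 0.07 from day 4 to day 6 (also -0.23 without D6PGCLC replicate 1). Its paralogs *Phc2* and *Phc3* held small shares. *Phc1* made up 90.8% ± 0.556 of the summed FPKM of the 3 PHC genes in ESCs, 97.7% ± 0.164 in EpiLCs, 95.3% ± 0.238 in D2PGCLCs and 93.1% ± 0.667 in D6PGCLCs. The sum itself was 52.2 ± 0.621 FPKM in ESCs, 165 ± 6.32 in EpiLCs, 102 ± 6.27 in D2PGCLCs and 87.9 ± 2.01 in D6PGCLCs. *Phc2* and *Phc3* were both lower in EpiLCs than in ESCs (log2 fold changes -0.30 and -0.51, edgeR adjusted p = 0.0415 and 0.00917), within the fold cutoff. The fibroblast sum was also highest in EpiLCs. In EpiLCs it was mostly *Thy1*, at 12.8 ± 1.80 CPM. Of the 4 tested fibroblast genes 3 were called higher from ESCs to EpiLCs (14.4% of all tested genes). All 4 were called lower into D2PGCLCs (also 14.4% of all tested genes). *Col3a1* had 0 counts in ESCs and at most 5 in any PGCLC sample. It passed the count filter only through EpiLCs, so nothing is read from its calls. The part of these genes in the level of *Phc1* was not tested.

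The CBX genes supply the reader of H3K27me3, and CBX7 and CBX2 also bind DNA or RNA. *Cbx7* (chr15:79915807-79971119, minus strand) was 221, 227 and 235 CPM in ESCs, 168, 176 and 188 in EpiLCs, 296, 242 and 262 in D2PGCLCs, 258, 249 and 241 in D4PGCLCs, and 181, 199 and 194 in D6PGCLCs. D6PGCLC and EpiLC samples overlapped and were below the other groups. The log2 fold change was -0.36 ± 0.08 into EpiLCs, 0.59 ± 0.08 into D2PGCLCs and -0.38 ± 0.08 from day 4 to day 6 (-0.34 without D6PGCLC replicate 1). *Cbx7* shares 100 bases of exon with *Apobec3* on the opposite strand. *Cbx2* (chr11:119022962-119031270, plus strand) stayed between 48.4 and 68.6 CPM in all 15 samples, and its means were 54.7 ± 5.69 CPM in ESCs, 52.4 ± 2.73 in EpiLCs, 65.3 ± 1.85 on day 2 of PGCLCs, 67.7 ± 0.9 on day 4 and 58.3 ± 4.15 on day 6.

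*Cbx8* (chr11:119036305-119040969, minus strand), which lies 5034 bases from *Cbx2*, was the CBX gene of this set that varied most. It was 7.96, 7.5 and 8.91 CPM in ESCs, 1.99, 2.17 and 2.75 in EpiLCs, 2.39, 1.65 and 2.82 in D2PGCLCs, 3.09, 4.31 and 3.92 in D4PGCLCs, and 8.49, 6.58 and 7.51 in D6PGCLCs. These levels rest on 46 to 323 counts per sample. ESC and D6PGCLC samples overlapped and lay above the rest, and EpiLC and D2PGCLC samples overlapped at the bottom. The log2 fold change was -1.82 ± 0.22 from ESCs to EpiLCs, 0.72 ± 0.22 from day 2 to day 4 and 0.99 ± 0.21 from day 4 to day 6 (0.90 without D6PGCLC replicate 1). Between D6PGCLCs and ESCs *Cbx8* had a fitted difference of -0.11 ± 0.21. *Cbx6* was within 45.5 to 63.1 CPM in all samples, shares 563 bases of exon with *Npcd* on its own strand, and its edgeR adjusted p was 0.0509 or higher in the 6 comparisons.

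By length, *Cbx7* made up 62.9% ± 2.06 of the summed FPKM of *Cbx2*, *Cbx6*, *Cbx7* and *Cbx8* in ESCs, 59.9% ± 2.34 in EpiLCs, 65.8% ± 1.39 in D2PGCLCs and 57.9% ± 2.79 in D6PGCLCs, and *Cbx2* between 23.0% ± 1.95 (ESCs) and 27.0% ± 1.53 (EpiLCs). *Cbx8* held 3.96% ± 0.252 in ESCs, 1.37% ± 0.19 in EpiLCs, 0.994% ± 0.233 in D2PGCLCs and 4.03% ± 0.514 in D6PGCLCs. Among these 4 genes the transcripts were thus mostly *Cbx7* and *Cbx2* in every group, and the share of *Cbx8* was smallest in D2PGCLCs.

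Promoter windows of *Bmi1* and *Cbx8* are shown because both hold the E-box CACGTG, which reads the same on both strands. The windows of *Ring1* and *Cbx7*, which like these genes had lower levels in EpiLCs than in ESCs, hold 0 copies. Among 32851 RefSeq windows of the same 250 bases upstream of a start (GRCm38.p6), 6.02% hold it. This motif was chosen after the sequences had been seen. The *Bmi1* window is chr2:18676768-18677017 (plus strand) and that of *Cbx8* is chr11:119040970-119041163 (minus strand), ended where the annotated exon of *Cbx8* begins. The capitals mark the E-box.
Bmi1: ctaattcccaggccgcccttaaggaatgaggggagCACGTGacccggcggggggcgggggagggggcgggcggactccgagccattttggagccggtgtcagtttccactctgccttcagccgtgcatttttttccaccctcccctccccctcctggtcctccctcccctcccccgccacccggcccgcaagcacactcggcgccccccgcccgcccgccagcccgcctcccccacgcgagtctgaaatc
Cbx8: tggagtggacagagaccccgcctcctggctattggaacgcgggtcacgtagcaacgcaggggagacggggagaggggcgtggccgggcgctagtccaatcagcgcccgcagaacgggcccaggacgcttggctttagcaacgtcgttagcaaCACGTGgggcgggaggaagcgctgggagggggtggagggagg
A match of these letters is a description of the sequence and not a binding site. The 250-base window of *Cbx8* also holds TGACGTCA in the bases not printed, as 1.55% of windows do.

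*Scml2* and *Scmh1* are the 2 Scm genes described here, and each encodes MBT repeats and a SAM domain through which it can join polyhomeotic proteins. *Scml2* (ENSMUSG00000000037, chrX:161117193-161258213, plus strand) was 3.98, 4.08 and 3.45 CPM in ESCs, 3.90, 4.70 and 4.40 in EpiLCs, 9.84, 5.98 and 11.6 in D2PGCLCs, 19.0, 10.6 and 21.8 in D4PGCLCs, and 38.4, 38.8 and 46.2 in D6PGCLCs. ESC and EpiLC samples overlapped, all PGCLC samples were above them, days 2 and 4 overlapped, and day 6 stood apart from all. Day 4 was above day 2 in each of the 3 pairs with the same replicate number. The mean ratios were 2.11-fold from EpiLCs to D2PGCLCs, 1.87-fold from day 2 to day 4 and 2.4-fold from day 4 to day 6. The log2 fold changes were 0.18 ± 0.26 into EpiLCs, then 1.08 ± 0.24, 0.90 ± 0.23 and 1.26 ± 0.22 (1.31 without D6PGCLC replicate 1). The value for entry into D2PGCLCs was 0.87, under the fold cutoff, without D2PGCLC replicate 3. Relative to ESCs, D6PGCLCs differed by 3.42 ± 0.25, or 3.49 without D6PGCLC replicate 1.

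*Scmh1* (ENSMUSG00000000085, chr4:120405281-120530186, plus strand) was 22.0, 22.0 and 20.7 CPM in ESCs, 24.3, 27.8 and 25.8 in EpiLCs, 59.1, 63.0 and 54.7 in D2PGCLCs, 42.4, 48.3 and 35.8 in D4PGCLCs, and 35.6, 36.6 and 29.2 in D6PGCLCs. D2PGCLC samples were above all others, days 4 and 6 overlapped, and every PGCLC sample was above every EpiLC and ESC sample. The log2 fold change was 0.27 ± 0.12 into EpiLCs and 1.18 ± 0.11 into D2PGCLCs, a mean ratio of 2.27-fold. It was then -0.48 ± 0.11 from day 2 to day 4 and -0.32 ± 0.11 from day 4 to day 6 (-0.36 without D6PGCLC replicate 1). In D6PGCLCs *Scmh1* remained 1.57-fold above ESCs (log2 fold change 0.65 ± 0.11).

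The share of the 2 Scm transcripts therefore shifted. *Scml2* made up 18.4% ± 0.833 of their summed FPKM in ESCs, 17.5% ± 0.489 in EpiLCs, 16.5% ± 5.33 on day 2 of PGCLCs, 33.9% ± 11.1 on day 4 and 60.7% ± 5.29 on day 6, with 57.4% to 66.8% in the D6PGCLC samples. Whether *Scml2* exceeded *Scmh1* on day 6 depended on the length used, because with the longest annotated transcript in place of merged exons its share was 11.5% in ESCs, 10.3% in D2PGCLCs and 47.1% in D6PGCLCs. The sum of both was 3.42 ± 0.152 FPKM in ESCs, 4.07 ± 0.287 in EpiLCs, 9.13 ± 0.141 on day 2 of PGCLCs, 8.28 ± 0.317 on day 4 and 11.1 ± 0.228 on day 6. The step of the summed Scm level at day 2 was mostly *Scmh1*, and on day 6 *Scml2* was the larger or nearly equal part by these 2 lengths. In bulk samples, a change in the number of expressing cells and a change in RNA per cell cannot be told apart.

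**Figure D2:**
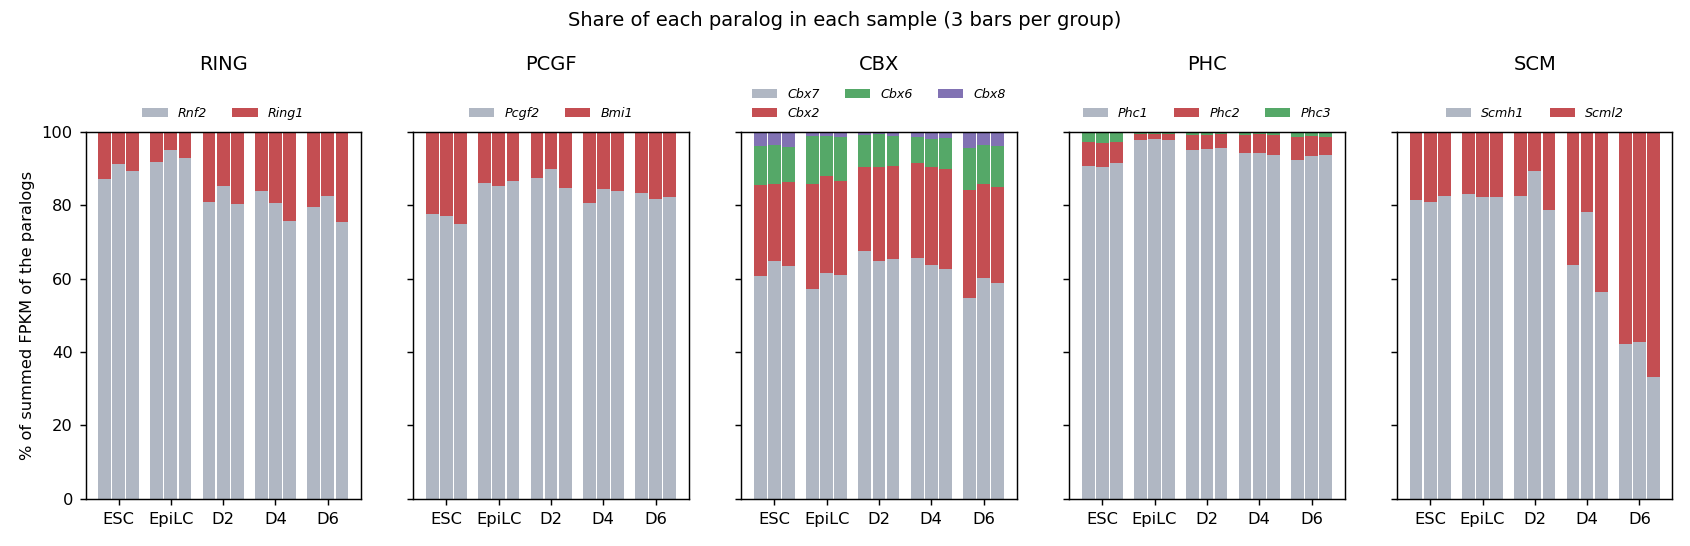
Share (%) of each paralog in the summed FPKM of the RING, PCGF, CBX, PHC and SCM genes named above each panel, as 1 stacked bar per sample (3 bars per group, days 2, 4 and 6 being PGCLCs). The *Scml2* share is 57.4% to 66.8% on day 6 against 16.9% to 19.1% in ESCs and EpiLCs, while *Rnf2*, *Pcgf2*, *Cbx7* and *Phc1* remain the main transcript of their groups in every sample.

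Some endoderm markers were higher on day 6 than on day 4, as *Scml2* and *Cbx8* were. The summed level of 6 endoderm genes was 1.5 to 1.76 CPM on day 2 of PGCLCs, 4.52 to 4.76 on day 4 and 9.58 to 18.0 on day 6, against 5.40 to 6.53 in ESCs. Of the 5 tested, 2 were called higher from day 4 to day 6, where 2.29% of all tested genes were. These were *Gata6* (log2 fold change 2.35 ± 0.41, edgeR adjusted p = 0.00124) and *Gata4* (1.00 ± 0.29, edgeR adjusted p = 0.0283). *Sox17* and *Sox7* were not called (edgeR adjusted p = 0.185 and 0.956), and *Afp* and *Foxa2* had at most 3 counts in each D6PGCLC sample. The day 6 sum was mostly *Gata6*, at 9.24 ± 4.35 CPM. *Gata4* was 1.94 ± 0.109 CPM in D6PGCLCs, below its 4.35 ± 0.565 CPM in ESCs. Of the 7 PGC genes, *Dnd1* and *Nanos3* were called lower over the same step (log2 fold changes -1.26 and -1.24, edgeR adjusted p = 1.44e-05 and 0.00246). Of all tested genes 0.785% were. Within the fold cutoff, *Prdm1*, *Prdm14* and *Tfap2c* were lower as well (-0.67, -0.33 and -0.32, edgeR adjusted p = 0.000578, 0.044 and 0.00814). The part of these in the levels of *Scml2* and *Cbx8* was not tested.

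The upstream windows of the 2 Scm genes are shown because they differ in CpG content. The *Scml2* window (chrX:161162500-161162749, plus strand) is in front of a RefSeq start inside the annotated gene and held 7 CpG in 250 bases, near the median of 6 over all windows. The *Scmh1* window held 45 CpG, the 99.6 percentile, and a second RefSeq start of *Scmh1* had a window with 0. The part of the *Scmh1* window before the annotated exon is chr4:120405098-120405280 (plus strand). Here the capitals mark CpG.
Scml2: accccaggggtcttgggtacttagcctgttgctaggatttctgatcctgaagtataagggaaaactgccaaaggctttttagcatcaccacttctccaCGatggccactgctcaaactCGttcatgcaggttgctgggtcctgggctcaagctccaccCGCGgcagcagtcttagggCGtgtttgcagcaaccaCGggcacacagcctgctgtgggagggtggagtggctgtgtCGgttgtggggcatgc
Scmh1: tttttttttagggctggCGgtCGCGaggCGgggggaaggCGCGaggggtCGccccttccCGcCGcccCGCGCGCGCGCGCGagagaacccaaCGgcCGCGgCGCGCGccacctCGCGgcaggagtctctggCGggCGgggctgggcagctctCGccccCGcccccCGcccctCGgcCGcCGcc
Neither printed window holds the E-box CACGTG. DNA methylation was not analysed here.

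Differentially expressed genes were called at an adjusted p under 0.05 with an absolute log2 fold change above 1. Neighbouring comparisons share a group of samples, so their values are not independent. From ESCs to EpiLCs 1 was higher (*Phc1*) and 2 lower (*Cbx8*, *Bmi1*), where 26.2% of all tested genes were called, 14.4% higher and 11.9% lower. From EpiLCs to D2PGCLCs 3 were higher (*Ring1*, *Scmh1*, *Scml2*), with 25.4% of all tested genes called, 11% higher and 14.4% lower. From day 2 to day 4 the count was 0 of 9 in edgeR and in DESeq2, with 2.94% of all tested genes called (2.56% higher, 0.376% lower), and 4 of the 9 had an unadjusted p under 0.05 in edgeR. From day 4 to day 6 *Scml2* was called, with 3.08% of all tested genes (2.29% higher, 0.785% lower), while *Cbx8* at 0.99 lay just under the cutoff and was counted as well in DESeq2. Between D6PGCLCs and D2PGCLCs *Scml2* and *Cbx8* were higher (13.6% of all tested genes called, 10.9% higher and 2.75% lower), and between D6PGCLCs and ESCs *Scml2* and *Ring1* (26.2%, with 15.8% higher and 10.3% lower). These counts for day 6 were the same without D6PGCLC replicate 1.

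Without the fold cutoff, 5, 8, 4, 4, 6 and 5 of the 9 genes passed in the same order of comparisons, where 52.5%, 53.2%, 11.9%, 12.8%, 37.7% and 53.7% of all tested genes did. Because the genes were chosen with these values known, nothing is read from the counts.

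**Figure D3:**
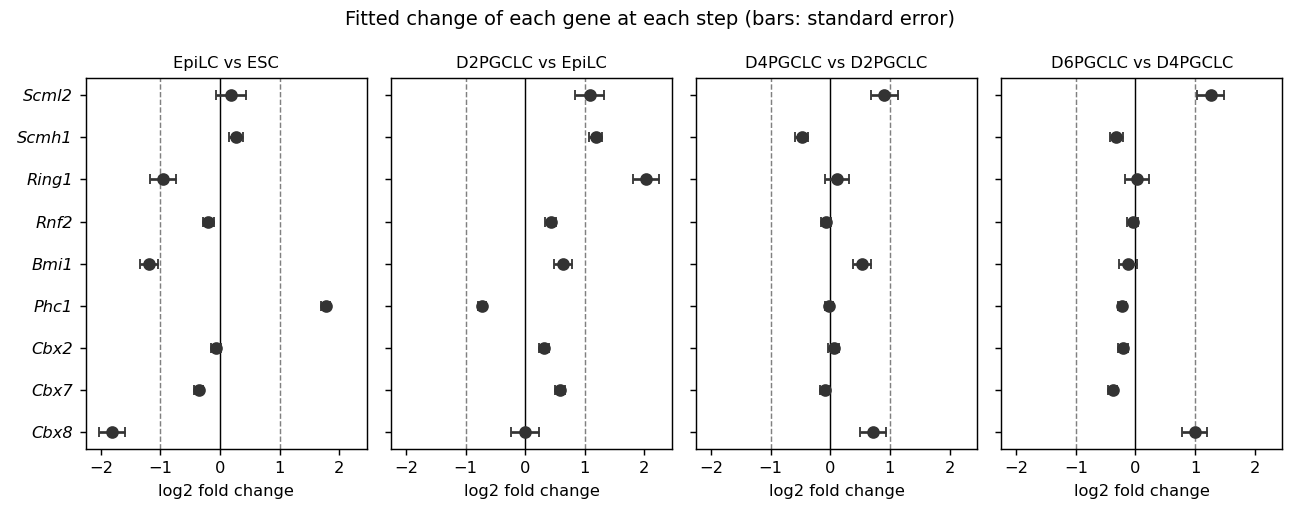
Fitted log2 fold change (x axis) of the 9 genes (y axis) at each of the 4 steps, with bars for the standard error and dashed lines at the fold cutoff. *Scmh1* is at 1.18 on entry into D2PGCLCs and below 0 at both later steps, and *Scml2* is at or above 0.90 at all 3 steps of the PGCLC course.

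Replicates of the 2 groups did not overlap for 6 of the 9 genes between EpiLCs and ESCs (63.5% of all tested genes did not), 8 between D2PGCLCs and EpiLCs (61%), 4 between days 2 and 4 (28.5%), 5 between days 4 and 6 (29.5%), 7 between days 2 and 6 (47.2%) and 6 between D6PGCLCs and ESCs (62%). Between EpiLCs and D2PGCLCs only *Cbx8* overlapped, with 7 genes higher (30.6% of all tested genes) and *Phc1* lower (30.3%). The median log2 fold change of the 9 genes was 0.59 at that step and 0.00 over all tested genes. Since the genes were chosen with these values known, nothing is read from these counts or this median either.

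The other genes of the pathway were tested as 32 partner genes in 4 lists, of which 31 passed the filter. These lists were also chosen with earlier results of these data known, so their shares and p-values are not independent support. These were other canonical subunits (*Cbx6*, *Pcgf2*, *Phc2*, *Phc3*), relatives of Scm with MBT repeats, subunits of variant PRC1, and the H2A deubiquitinase PR-DUB with related deubiquitinases and cofactors. From ESCs to EpiLCs 2 of 31 were called, both lower (6.45%, against 26.2% of all tested genes): *Asxl3*, a PR-DUB cofactor (log2 fold change -1.35 ± 0.32, edgeR adjusted p = 0.00161), and *Pcgf1*, the PCGF subunit of the variant complex with KDM2B and BCOR (-1.14 ± 0.13, edgeR adjusted p = 3.84e-07). Without the fold cutoff 19 passed, 9 higher and 10 lower. The median over the 31 was 0.05, beside -0.01 over all tested genes.

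From EpiLCs to D2PGCLCs 7 of 31 were called, 5 higher and 2 lower (22.6%, against 25.4% of all tested genes). With each replicate left out in turn the count was 6 to 10. *Fbrsl1*, a relative of the AUTS2 subunit of variant PRC1, rose from 63.4 ± 3.58 to 206 ± 19.7 CPM (log2 fold change 1.70 ± 0.08, edgeR adjusted p = 5.93e-12). *L3mbtl3*, an MBT-repeat reader of methylated lysine, fell from 11.4 ± 1.18 to 3.76 ± 1.20 CPM (-1.59 ± 0.21, edgeR adjusted p = 2.85e-06), and *Bcorl1*, the paralog of *Bcor*, fell from 16.8 ± 1.87 to 7.02 ± 0.584 CPM (-1.25 ± 0.12, edgeR adjusted p = 9.42e-08). The 4 others called at this step, all higher, had log2 fold changes of 1.06 to 1.13.

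Within the PGCLC course, the count from day 2 to day 4 was 0 of 31 in edgeR and in DESeq2 (2.94% of all tested genes), with 9 genes at an unadjusted p under 0.05 in edgeR. From day 4 to day 6 *Bcorl1* alone was called (1 of 31, 3.23%, against 3.08%). *Bcorl1* was 11.3 to 12.9 CPM in D4PGCLCs and 26.0 to 26.9 in D6PGCLCs (log2 fold change 1.15 ± 0.12, edgeR adjusted p = 1.37e-05, and 1.14 without D6PGCLC replicate 1). From day 2 to day 6, 3 of 31 rose (9.68%, against 13.6%). These were *Bcorl1* (1.91 ± 0.12, edgeR adjusted p = 5.04e-09), *L3mbtl3* (1.19 ± 0.20, edgeR adjusted p = 0.000177) and *Yaf2*, the paralog of *Rybp* (1.11 ± 0.17, edgeR adjusted p = 5.29e-05). *L3mbtl3* fell under the fold cutoff (0.998) without D2PGCLC replicate 2. In D6PGCLCs against ESCs, *Pcgf5*, a PCGF subunit of variant PRC1, was higher (1.17 ± 0.13, edgeR adjusted p = 3.31e-07), 1 of 31 (3.23%, against 26.2%). The count was 2 without D6PGCLC replicate 1, without D6PGCLC replicate 3 or without ESC replicate 1, when *Yaf2* passed the fold cutoff as well (1.06, 1.00 and 1.18). Without D6PGCLC replicate 1 the counts against days 4 and 2 stayed at 1 and 3.

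**Figure D4:**
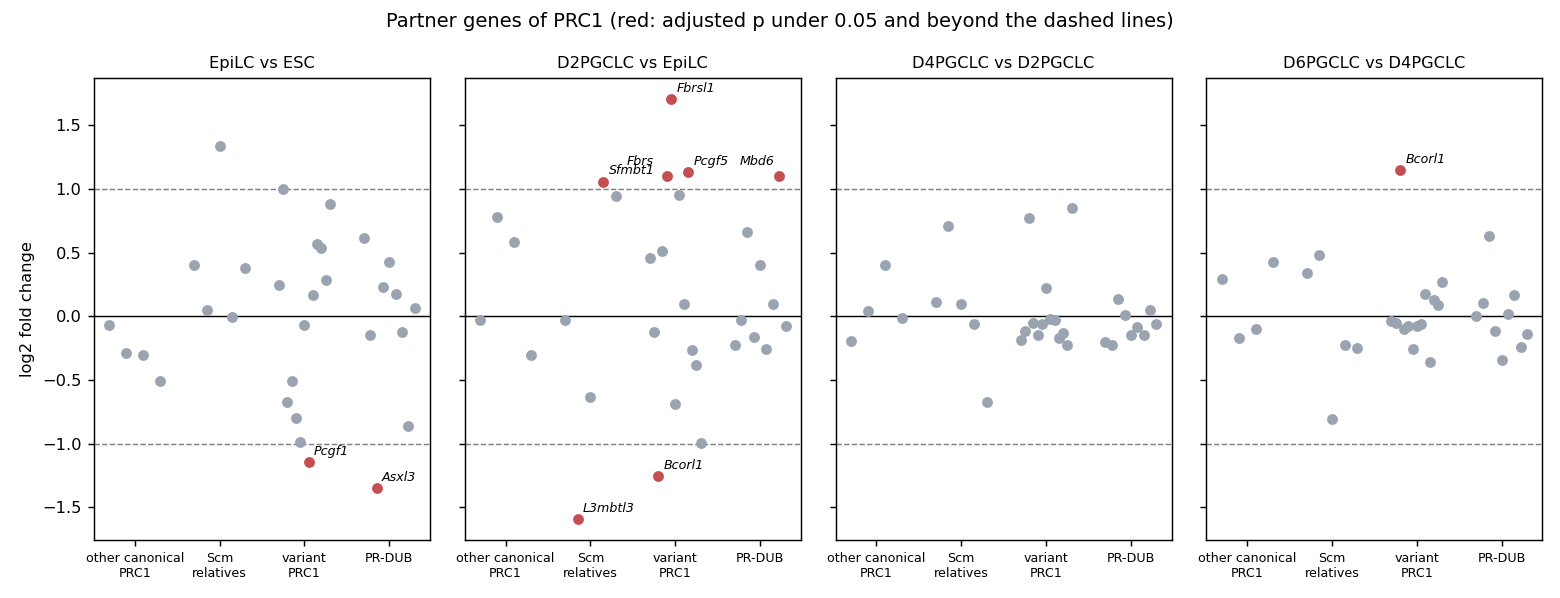
Fitted log2 fold change (y axis) of the 31 tested partner genes at the 4 steps, by list (x axis); each point is a gene, and red points with names passed an adjusted p under 0.05 and the fold cutoff (dashed lines). Called genes number 2, 7, 0 and 1 from left to right, and *Bcorl1* falls on entry into D2PGCLCs and rises from day 4 to day 6.

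Among 16 genes known as Polycomb targets in other cells, 12 passed the filter. This list too was chosen with earlier results of these data known, so its shares and p-values are not independent support. *Cdkn2a*, the cell cycle inhibitor locus that PRC1 is best known for silencing, was 35.2 ± 5.76 CPM in ESCs, 18.8 ± 2.28 in EpiLCs, 18.1 ± 0.716 on day 2 of PGCLCs, 24.2 ± 2.74 on day 4 and 28.7 ± 2.95 on day 6. It was lower in EpiLCs than in ESCs (log2 fold change -0.91 ± 0.13, edgeR adjusted p = 1.26e-05) and higher in D6PGCLCs than in D2PGCLCs (0.67 ± 0.13, edgeR adjusted p = 0.000648), both within the fold cutoff. Its neighbour *Cdkn2b* fell from 5.72 ± 0.55 CPM in EpiLCs to 1.41 ± 0.45 in D2PGCLCs (-2.01 ± 0.28, edgeR adjusted p = 6.61e-06).

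Several developmental regulators of this list had few counts. From ESCs to EpiLCs 5 of 12 rose and 1 fell (50%, against 26.2% of all tested genes, 14.4% higher and 11.9% lower). From EpiLCs to D2PGCLCs 1 rose and 7 fell (66.7%, against 25.4%, 11% higher and 14.4% lower). *Pax7* and *Nkx2-2* were called at both steps but had at most 5 counts in any sample outside EpiLCs. They passed the count filter only through EpiLCs, so nothing is read from their p-values or their part in these shares. *Neurog1*, the gene that rose into D2PGCLCs, had at most 3 counts in any ESC or EpiLC sample. It passed the filter only through PGCLCs, so nothing is read from its p-value or its part either. *Wt1* had 0 to 8 counts in ESCs and rose to 23.7 ± 2.29 CPM in EpiLCs (edgeR adjusted p = 3.58e-11), and it was 1.11 ± 0.257 CPM in D2PGCLCs. *Nkx2-2* had 0 to 2 counts in ESCs and 9 to 16 in EpiLCs (edgeR adjusted p = 0.0143), a call lost without ESC replicate 2 or ESC replicate 3 (edgeR adjusted p = 0.064 and 0.0736). *Msx1* fell from 3.41 ± 0.672 CPM in EpiLCs to 0 to 2 counts per sample in D2PGCLCs (edgeR adjusted p = 8.19e-06), and *Pax7* from 9 to 22 counts to 0 in all 3 samples (edgeR adjusted p = 0.00128). From day 2 to day 4 *Pax6* alone rose (8.33%, against 2.94% of all tested genes). Its log2 fold change was 1.02 ± 0.27 (edgeR adjusted p = 0.0198), a call lost without D2PGCLC replicate 2, D4PGCLC replicate 1 or D4PGCLC replicate 3 (0.81, 0.91 and 0.99). From day 4 to day 6 the count was 0 of 12 in edgeR and in DESeq2 (3.08% of all tested genes), with 2 genes at an unadjusted p under 0.05 in edgeR. From day 2 to day 6 *Lhx2* (1.91 ± 0.43, edgeR adjusted p = 0.0018) and *Nkx2-9* rose (16.7%, against 13.6% of all tested genes). *Nkx2-9* had 0.925 to 3.31 CPM in D6PGCLCs and an adjusted p of 0.0508 in edgeR without D6PGCLC replicate 1. Relative to ESCs, *Msx1* was lower in D6PGCLCs (-2.58 ± 0.73, edgeR adjusted p = 0.00602). *Neurog1* had 34 to 57 counts in D6PGCLCs against 0 to 2 in ESCs. Its p-value (edgeR adjusted p = 0.000106) has the limit given above.

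The genes whose levels across the 15 samples were most like those of *Scml2*, among 4283 genes with enough counts and range, were *Aga* (Pearson's r = 0.979), *Gm15262* (0.973) and *Gpat2* (0.969). Samples of a group share their condition, so these values describe the pattern over 5 groups. *Gpat2*, a gene of the germline piRNA pathway, was 24.3 ± 3.27 CPM in ESCs, 33.0 ± 5.38 on day 2 of PGCLCs, 57.8 ± 3.22 on day 4 and 82.6 ± 5.32 on day 6. *Aga*, a lysosomal amidase, was 12.6 ± 0.404 CPM in ESCs and 38.9 ± 4.25 in D6PGCLCs. *Gm15262* (chrX:161287456-161366252) starts 29242 bases beyond the end of *Scml2*. Its counts were 1 to 2 for ESC samples, 6 to 18 for EpiLC samples, 11 to 38 on day 2 of PGCLCs, 63 to 124 on day 4 and 421 to 565 on day 6. It met the mean of 100 counts required of the ranked genes only through day 6, so nothing is read from its r. A search of the *Scml2* transcripts against all annotated transcripts found no copy of at least 200 bases at 95% identity, so shared reads of that kind were not found.

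For *Scmh1* the most similar genes were *Arhgef1* (r = 0.967), a guanine nucleotide exchange factor, *Pik3cb* (0.965), a catalytic PI3-kinase subunit, and *Adam17* (0.96), a membrane sheddase. Like *Scmh1*, all had their highest mean in D2PGCLCs. *Arhgef1* was 85.9 ± 2.23 CPM in ESCs, 232 ± 14.7 in D2PGCLCs and 126 ± 12.7 in D6PGCLCs, and *Pik3cb* was 53.4 ± 2.43, 164 ± 5.15 and 92.3 ± 3.42 CPM in the same groups. With a pseudocount of 0.1 in place of 1 the most similar genes of both Scm genes were the same. Nothing about shared function is drawn from the likeness.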

How the data were processed

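The authors purified total RNA with TRIzol, made stranded libraries (NEBNext Ultra II Directional), aligned reads to mm10 with ENSEMBL annotations and deposited raw counts per gene. The processing notes name Trim Galore, FastQC and STAR. The counting tool, strand setting and handling of multi-mapping reads are not given in the sources used here. GENCODE M21 gave symbols, coordinates and exon lengths for 55450 of 55536 identifiers. RefSeq windows (GRCm38.p6) covered 8 of the 9 genes.

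The counts were normalized by TMM and filtered with filterByExpr (minimum count 10). In edgeR 4.0.16 (R 4.3.3), the quasi-likelihood test was fitted to the 15 samples together, each group having 1 coefficient, and p-values were adjusted after Benjamini-Hochberg among the 18090 genes kept. CPM and FPKM used TMM-scaled libraries. Transcript copies were searched with blastn 2.17.0. Replicates of a group differed by more than counting noise (chi-square per gene 8.82 to 44.6). The labels do not say what a shared replicate number marks. Deviations of same-number samples from their group means were correlated at over 0.1 in all 3 pairs of days 2 and 4 of PGCLCs (0.255 to 0.299, against -0.23 to -0.0555 for other numbers). In every other comparison at least 1 of 3 pairs was under 0.1.

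The 9 genes and the gene lists were chosen with earlier results of these data known. The other genes named were paralogs of the subunits, up to 3 called partner genes and 2 called Polycomb targets per comparison by absolute log2 fold change, *Cdkn2a* and *Cdkn2b*, and the 3 genes most correlated with each Scm gene on log2(CPM + 1), among genes averaging 100 counts or more whose group means spanned a log2 range of 1 or more. *Gm5946*, the overlapping genes and the marker genes with values fall outside this rule and were named after their values were seen. 1 listed item is not reported here. Alternatives were DESeq2 1.42.0, its size factors, no TMM, no count filter, a replicate block, a fit of the 2 compared groups alone, no fold cutoff, another length, another pseudocount, and each replicate left out. A block within days 2 and 4 alone was chosen after seeing the data.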

Additional observations from a re-analysis of the deposited data

How the results depend on the processing

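No call of the 9 genes or of the partner genes reversed under any alternative run. The number of the 9 genes called from day 4 to day 6 (1) became 2 with DESeq2, with its size factors in edgeR, with library sizes without TMM, and with only the 2 groups compared. *Cbx8* was then 1.02, 1.02, 1.09 and 1.01 against 0.99, across the fold cutoff. The number of partner genes called from ESCs to EpiLCs (2) became 4, of which 2 were higher, with only the 2 groups compared. The number called between D6PGCLCs and ESCs (1) became 2, as *Yaf2* crossed the fold cutoff, with library sizes without TMM, with no count filter, with the replicate block and with only the 2 groups compared. Without the fold cutoff the counts, in the order EpiLC against ESC, D2PGCLC against EpiLC, day 4 against 2, day 6 against 4, day 6 against 2 and D6PGCLC against ESC, were 5, 8, 4, 4, 6 and 5 of the 9 genes and 19, 18, 5, 3, 10 and 15 of the partner genes, against 3, 3, 0, 1, 2, 2 and 2, 7, 0, 1, 3, 1 with it. Leaving out each replicate gave 0 to 1 of the 9 genes from day 2 to day 4 (1 without D2PGCLC replicate 3 or D4PGCLC replicate 2) and 1 to 2 from day 4 to day 6 (2 without D4PGCLC replicate 2, D4PGCLC replicate 3 or D6PGCLC replicate 2), and 1 to 2 of the partner genes between D6PGCLCs and ESCs. It gave 3 to 4 of the 9 genes from ESCs to EpiLCs and 2 to 3 from EpiLCs to D2PGCLCs. For the partner genes it gave 2 to 3, 6 to 10 and 2 to 4 from ESCs to EpiLCs, from EpiLCs to D2PGCLCs and from day 2 to day 6.

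Without TMM the median of all tested genes moved to -0.11, 0.05, 0.09, 0.08, 0.16 and 0.11 on the log2 scale in the same order, and the log2 fold changes of the 9 genes moved with it, so that small differences such as those of *Cbx2* and *Rnf2* between days 2 and 6 changed sign. Over all groups, deviations had a mean correlation of 0.0703 in 30 pairs with the same replicate number and -0.0352 in 60 others. Days 2 and 4 were the exception, with every same-number pair over 0.1. A block fitted to those 2 groups alone called 671 genes against 531, and 0 of the 9 genes and 0 of the partner genes, as without it. With the replicate number as a block, 4726, 4560, 543, 566, 2416 and 4704 genes were called against 4748, 4596, 531, 557, 2462 and 4732 without it, and the counts of the 9 genes and of the partner genes were within 1.5 times of those without it, except the partner genes between D6PGCLCs and ESCs (2 against 1). The call of *Nkx2-2* from EpiLCs to D2PGCLCs was lost with the block, with DESeq2, without the filter and in 4 of the fits leaving out a replicate (adjusted p 0.0527 to 0.162). *Msx1* in EpiLCs was added with the block, DESeq2, its size factors, no filter and the 2 groups alone. *Pax7* in EpiLCs was lost with DESeq2, without the filter and without ESC replicate 1 or 2 or EpiLC replicate 1 (adjusted p 0.0706 to 0.109). Both *Pax7* and *Nkx2-2* were under the count filter without EpiLC replicate 2 and in the 2 groups alone. The cause of these changes was not tested. Depth limits *Cbx8* and the Polycomb targets with few counts. Shares of paralogs also depended on the length used. With the longest annotated transcript, *Phc1* held 87.8% and *Cbx6* 12.4% in ESCs, against 90.8% and 10.2% with merged exons. *Rnf2*, *Pcgf2*, *Cbx7* and *Phc1* were the main transcripts of their groups with either length.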

Other observations

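In each PGCLC group, the sample with the highest *Scml2* level, replicate 3, had the lowest *Scmh1* level and the highest *Ring1* level. *Scmh1* was highest in replicate 2 on all 3 days. Without TMM this held on days 2 and 4, and replicate 1 was highest for *Scmh1* on day 6. In D2PGCLCs, replicate 3 had 11.6 CPM of *Scml2* and 54.7 of *Scmh1*, and replicate 2 had 5.98 and 63.0. In D4PGCLCs, replicate 3 had 21.8 and 35.8 CPM, and replicate 2 had 10.6 and 48.3. In D6PGCLCs, replicate 3 had 46.2 and 29.2 CPM, replicate 2 had 38.8 and 36.6, and replicate 1 had the lowest *Scml2* level, 38.4, with 35.6 of *Scmh1*, so the inverse order of all 3 samples held on days 2 and 4 only. This was noticed in the data and rests on 3 samples in each of 3 groups, so it was not tested.

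In D2PGCLC replicate 2, 8 of the 9 genes had their lowest level of that group and the remaining gene, *Scmh1*, its highest. The count was also 8 without TMM. The share of all tested genes that were lowest in this sample was not counted, so nothing particular to the 9 genes is read from it. That sample had 28907803 counts, the lowest total of its group, and it was not set apart by the number of genes with counts, 22036.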
